A study of Mus musculus with 6 samples.

Results

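The 10 genes studied here mark the liver's surface mesothelium and the septum transversum lineage beneath it: Wt1, Tcf21, Bnc1, Hand2, Lhx2, Tbx18, Gpm6a, Msln, Upk3b and Krt19. They and the gene lists set beside them were chosen by name, with earlier results of these data known. All 10 of the 10 genes had a feature among the 23279 named genes of the arrays. The 6 arrays came from livers of mouse embryos at day 11.5 of gestation: 3 whose titles name them Stab2Cre;Gata4 knockout, and 3 whose titles name them Stab2Cre;Gata4 heterozygous, called control livers here. By those titles both groups carry the Stab2-Cre transgene, in which the promoter of a scavenger receptor gene of liver sinusoidal endothelium drives the recombinase. The titles do not name a floxed allele. Read with the cross in the labels, both groups carry floxed Gata4, on both copies in the livers labelled knockout. The cross was of Stab2-Cre tg/wt;Gata4 fl/wt with Gata4 fl/fl mice, per the labels. The sources used here do not say how many embryos went into an array, nor that replicates came from separate litters, so p-values measure the spread between these arrays.

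The mesothelium is the thin epithelium that covers the liver and lines the body cavity. It and the mesenchyme of the septum transversum, the mesodermal plate into which the liver bud grows, arise from a common mesoderm. Cells of this lineage move inward to become stellate cells and other perivascular mesenchyme, and the mesenchyme sends the hepatoblasts growth signals. The same lineage extends over neighbouring organs, so Wt1, Tcf21 and Tbx18 also mark the epicardium of the heart, and Tcf21 marks visceral mesenchyme. Gata4 is itself active in septum transversum mesenchyme.

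Bnc1, Hand2 and Krt19 rose in the livers labelled knockout, and the other 7 genes did not pass the test. Values are on the authors' log2 scale, where a difference of 1 means 2-fold, and the test is limma's moderated test with Benjamini-Hochberg adjustment over all 23279 genes at an adjusted p of 0.05. Called higher were 3 of the 10 and called lower were 0, where 6.36% of all genes were called, 3.59% higher and 2.77% lower. With single arrays left out, the count was 3 when labelled knockout replicate 2 was dropped, 1 for replicate 3 of that group, 1 for control replicate 2 and 0 for control replicate 3 (limma, with 5 at an unadjusted p under 0.05 in that last fit), where 3.96%, 1.13%, 1.58% and 0.176% of all genes were called. The log2 difference was above 0 for 8 of the 10, against 48.3% of all genes, and the median over the 10 was 0.50, against −0.01 over all genes. Centred on the median deviation of hepatoblast genes, the median over the 10 was 0.28 with 8 above 0 and 2 called higher. Of all 23279 genes, 271 were then called higher and 2083 lower. Centred on the median level of hepatoblast genes, the median over the 10 was 0 with 5 above 0. Of the 10, 0 were called higher and 2 lower by level, where 136 of all genes were called higher and 11504 lower. That centring put the median of the hepatoblast genes themselves at −0.31. Groups lay fully apart for 5 genes that were higher and 1 that was lower in the livers labelled knockout, where 27.3% of all genes had such gaps, 13% higher and 14.3% lower. In bulk tissue more cells of a type and more RNA per cell cannot be told apart.

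**Figure D1:**
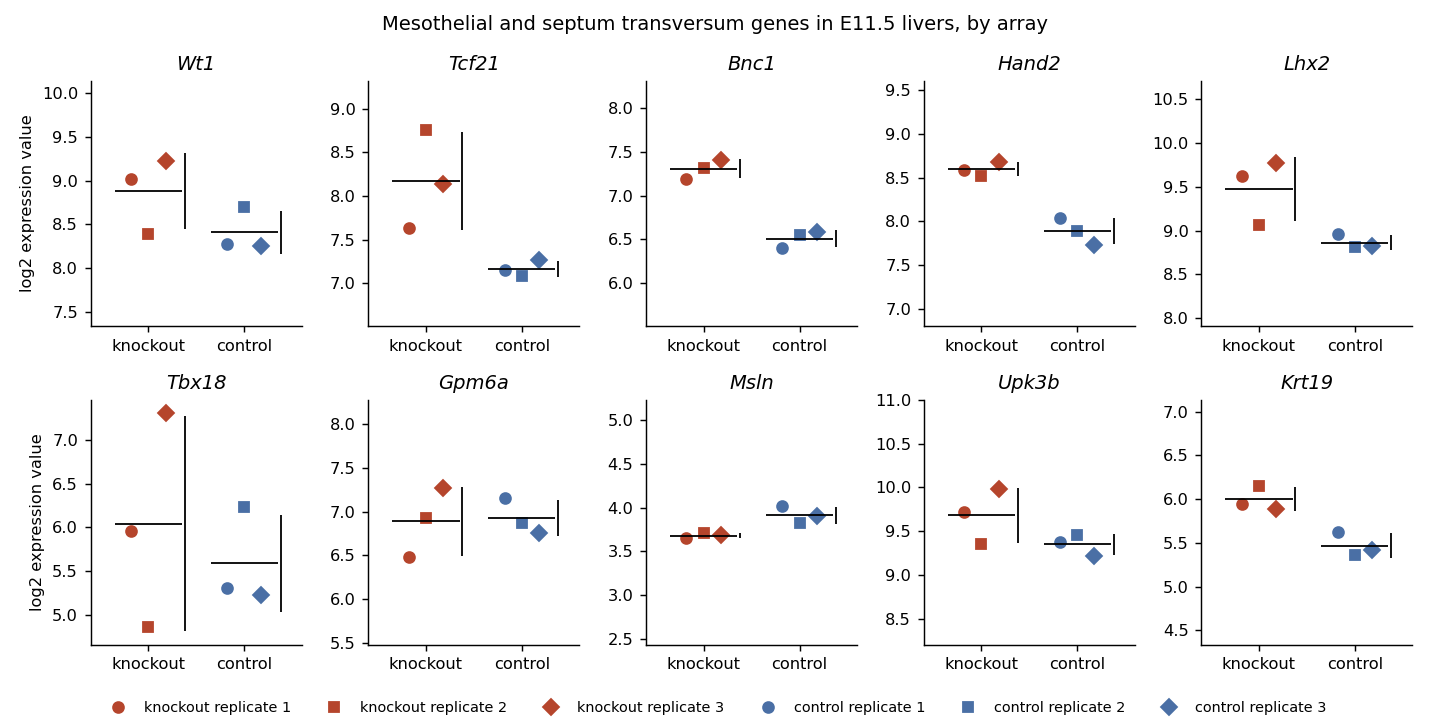
Log2 expression values of the 10 genes in each array, labelled knockout (red, left) and control (blue, right); marker shape gives the replicate number, the horizontal line the mean and the vertical line the SD of 3 arrays, and every vertical axis spans the same range. The groups lie apart for Tcf21, Bnc1, Hand2, Lhx2 and Krt19, which are higher in the livers labelled knockout, and for Msln, which is lower there; replicate 2 is the lowest labelled knockout array for Wt1, Hand2, Lhx2, Tbx18 and Upk3b and the highest for Tcf21.

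The arrays differed in ways that touch these genes. Gata4 itself read 10.38, 10.26 and 10.64 in the livers labelled knockout, against 9.90, 9.96 and 9.87 in control livers, a log2 difference of 0.51 (SE 0.12, limma adjusted p = 0.0409). It was higher where the label says knockout, and whether the feature lies within the deleted part is unknown, so the gene does not check the labels in whole liver. The labelled tissue was in place, with albumin above 13.3 in all 6 arrays. Labelled knockout replicate 2 stood apart: 90 genes lay more than 2-fold above every other array there, against 4 to 10 such genes in each other array. Xist and Y-linked genes read as female for all 3 knockout-labelled arrays plus control replicate 2, and as male for control replicates 1 and 3. Blood genes were lower in the livers labelled knockout. The summed linear signal of 14 erythroid genes was 10909 to 12579 there, against 15141 to 23444 in control livers, and that of 14 leukocyte genes was 3514 to 5227, against 6631 to 8879, and none of these genes lay in the lowest 25% of mean values. Their part in the differences of the 10 genes was not tested.

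Sequence upstream of the start sites was read for the called genes Bnc1 and Hand2 and for Tcf21, which had the largest difference of the 10. No window was on hand for Wt1, Msln and the called gene Krt19. RefSeq's promoter windows, 250 bases before to 50 after the start on GRCm38.p6, were on hand for the other 7 of the 10 genes. These gave 9 windows, since Lhx2 and Gpm6a have 2 each. Those of Bnc1, Hand2 and Tcf21 lie, in that order, at chr7:81992250-81992549 on the minus strand, chr8:57320733-57321032 on the plus strand and chr10:22820094-22820393 on the minus strand. Capitals mark matches, on either strand, to short words bound by factors of this lineage: AGATAA for the GATA factors, CAGCTG for the factor TCF21, CAGATG for the factor HAND2, GTGGGAG for the factor WT1, TAATTA for the factor LHX2 and AGGTGTG for the T-box factors. The words were chosen with the values known.
Bnc1: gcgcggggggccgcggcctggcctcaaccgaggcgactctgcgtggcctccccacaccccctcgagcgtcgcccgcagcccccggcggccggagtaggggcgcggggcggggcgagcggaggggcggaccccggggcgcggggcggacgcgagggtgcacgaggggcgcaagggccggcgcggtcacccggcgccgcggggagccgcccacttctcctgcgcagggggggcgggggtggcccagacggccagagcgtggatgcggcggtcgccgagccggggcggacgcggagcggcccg
Hand2: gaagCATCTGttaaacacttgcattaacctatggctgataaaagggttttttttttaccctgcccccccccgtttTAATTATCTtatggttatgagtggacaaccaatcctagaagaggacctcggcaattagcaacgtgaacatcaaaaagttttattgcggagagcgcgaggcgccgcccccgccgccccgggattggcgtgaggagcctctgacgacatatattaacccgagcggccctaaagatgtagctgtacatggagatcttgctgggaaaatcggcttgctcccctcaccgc
Tcf21: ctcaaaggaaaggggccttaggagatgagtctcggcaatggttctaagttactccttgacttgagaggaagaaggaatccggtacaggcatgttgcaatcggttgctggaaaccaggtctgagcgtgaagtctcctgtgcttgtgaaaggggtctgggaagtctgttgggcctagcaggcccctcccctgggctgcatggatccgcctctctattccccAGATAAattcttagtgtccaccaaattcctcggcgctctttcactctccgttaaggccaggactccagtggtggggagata

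The GATA word stood in the windows of Tcf21, beginning 31 bases before the start, and Hand2, beginning 172 bases before it on the opposite strand. It is in 11.2% of the 32851 windows of all genes. In Hand2 it overlaps by 3 bases a TAATTA word, present in 5.29% of all windows, and a HAND2 word begins 246 bases before the start, present in 17.2%. The Bnc1 window held none of the 6 words and was 83.3% G and C, against 50.3% in Hand2 and 53.3% in Tcf21. Among the other windows, the second Lhx2 window held a WT1 word, found in 9.73% of all windows, and a HAND2 word. The Tbx18 window held a HAND2 word and the second Gpm6a window a TAATTA word. The TCF21 word (16.3% of all windows) and the T-box word (5.84%) were in none of the 9. Only the exact words were searched, so close variants such as tgataa in the Hand2 window are not marked. These are matches of letters, and they say nothing of binding.

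Among the transcription factors, Bnc1 and Hand2 had the steadiest values. Bnc1 encodes basonuclin 1, a zinc-finger factor of mesothelium and of squamous epithelium. It read 7.19, 7.32 and 7.41 in the livers labelled knockout, against 6.40, 6.55 and 6.59 in control livers. Every labelled knockout array was higher than every control array, with a gap of 0.60 between the closest arrays. Bnc1 averaged 7.31 ± 0.11 in livers labelled knockout and 6.51 ± 0.10 in control livers (SD, n = 3 each), a 1.73-fold rise (log2 difference 0.79, SE 0.10, 95% interval 0.56 to 1.03, limma adjusted p = 0.0113). The call was lost only without control replicate 3 among the fits that left out a single array (0.83, adjusted p = 0.0536). Hand2, a basic helix-loop-helix factor of the septum transversum, lateral mesoderm and heart, read 8.59, 8.52 and 8.68 in livers labelled knockout, against 8.04, 7.89 and 7.73 in control livers. The closest arrays of the groups were 0.48 apart. The rise was 1.64-fold (log2 difference 0.71, SE 0.11, 95% interval 0.46 to 0.96, limma adjusted p = 0.016). It did not pass without labelled knockout replicate 3 (0.67, adjusted p = 0.058), control replicate 2 (0.71, 0.053) or control replicate 3 (0.63, 0.0684).

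Tcf21, another basic helix-loop-helix factor, needed in the mesenchyme of several organs, had the largest difference of the 10 genes and missed the threshold narrowly. It read 7.63, 8.75 and 8.14 in livers labelled knockout, against 7.15, 7.09 and 7.27 in control livers. All 3 labelled knockout arrays were above all controls, but they spread over more than 1 log2 unit, with replicate 2 highest. The log2 difference was 1.00 (SE 0.25, 95% interval 0.43 to 1.57, limma adjusted p = 0.0526). It was 0.71 without labelled knockout replicate 2 (adjusted p = 0.0538) and 1.27, and called, without labelled knockout replicate 1 (adjusted p = 0.0167). Other genes known from foregut mesenchyme, picked out after their values were seen, were also highest in replicate 2. The stomach mesenchyme factor Barx1 read 7.95, 10.70 and 8.41 in livers labelled knockout, against 7.80, 7.85 and 7.52 in control livers. Osr1 read 8.34, 11.63 and 9.02, against 7.55, 8.75 and 8.21, and Isl1 read 7.24, 9.83 and 7.92, against 6.93, 6.62 and 7.12. Like Tcf21, all 3 genes were highest in labelled knockout replicate 2. Osr1 and Isl1 are also counted among the septum transversum regulators below. Over the list of 10 foregut, lung and pancreas markers, the summed linear signal was 455, 1959 and 564 in livers labelled knockout, against 465, 473 and 417 in control livers. Most of that sum in replicate 2 was Barx1 alone. The list's median of the value minus the control mean was −0.13, 0.04 and −0.05 in livers labelled knockout. It was 0.06, 0.06 and −0.11 in control livers. Replicate 2 was the highest of the 6 arrays for 3 of those 10, and more than 2-fold above all others for Barx1 and the foregut epithelial factor Sox2. The lung genes Nkx2-1 and Sftpc read 3.69 to 4.25 in all arrays. None of the 10 markers was in the lowest 25% of mean values. The part of such tissue in the Tcf21 difference was not tested, in the fits with or without labelled knockout replicate 2.

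**Figure D2:**
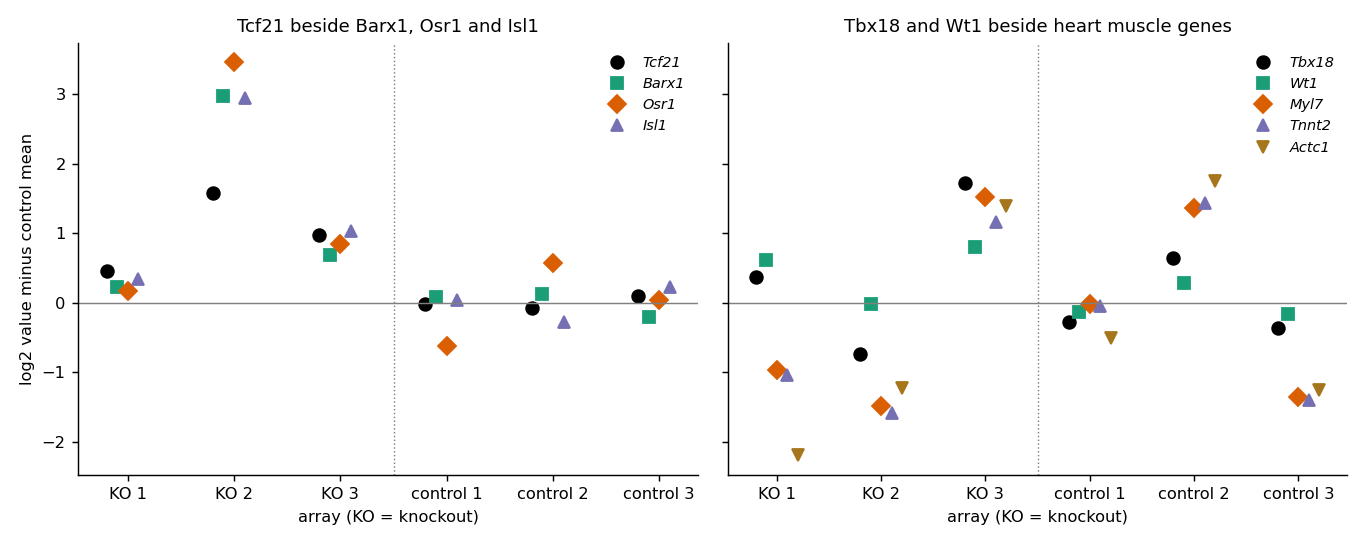
Log2 value minus the mean of the 3 control arrays in each array, for Tcf21 with Barx1, Osr1 and Isl1 (left) and for Tbx18 and Wt1 with the heart muscle genes Myl7, Tnnt2 and Actc1 (right); KO is labelled knockout, and points are shifted sideways within an array for legibility. Tcf21 is highest in labelled knockout replicate 2, as are the 3 genes beside it, and Tbx18 is highest in labelled knockout replicate 3 and control replicate 2, as are the heart muscle genes.

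Lhx2 was higher in all 3 livers labelled knockout but did not pass with 6 arrays. It encodes a LIM homeodomain factor of liver mesenchyme whose loss in mice gives small, fibrotic livers. It read 9.62, 9.07 and 9.77 in livers labelled knockout, against 8.96, 8.81 and 8.82 in control livers. Replicate 2 came within 0.11 of the highest control, whereas replicates 1 and 3 lay well above. The log2 difference was 0.62 (SE 0.17, 95% interval 0.22 to 1.02, limma adjusted p = 0.0755). Without labelled knockout replicate 2 it was 0.83 and called (SE 0.11, adjusted p = 0.0145).

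Wt1 and Tbx18 had overlapping groups. Wt1, the zinc-finger factor that marks mesothelium and epicardium, read 9.02, 8.39 and 9.22 in livers labelled knockout, against 8.28, 8.70 and 8.25 in control livers. Replicates 1 and 3 of the livers labelled knockout lay above all controls, and replicate 2 lay below control replicate 2. The log2 difference of 0.47 did not pass (SE 0.22, 95% interval −0.04 to 0.98, limma adjusted p = 0.26). It was 0.71 without labelled knockout replicate 2 (adjusted p = 0.0531) and 0.30 without labelled knockout replicate 3 (adjusted p = 0.529). Tbx18, a T-box factor of the epicardium and septum transversum, read 5.96, 4.86 and 7.31 in livers labelled knockout, against 5.31, 6.23 and 5.23 in control livers. Its range within the livers labelled knockout exceeded the whole range of the controls, and its log2 difference was 0.45 (SE 0.55, 95% interval −0.82 to 1.73, limma adjusted p = 0.717). Without labelled knockout replicate 3 the difference was −0.18 (adjusted p = 0.86), and without labelled knockout replicate 2 it was 1.05 (adjusted p = 0.216).

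The arrays with the most Tbx18 were also those with the most heart muscle signal. The summed linear signal of 10 heart muscle genes was 599, 721 and 3393 in livers labelled knockout, against 1259, 4656 and 682 in control livers. Labelled knockout replicate 3 and control replicate 2 were the top arrays for 7 of the 10, among them Myl7, which read 6.22, 5.71 and 8.72 in livers labelled knockout, against 7.17, 8.55 and 5.84 in control livers. Myl7 and the other heart genes named with Tbx18 were picked after their values were seen, and 1 of the 10, Myh7, lay in the lowest 25% of mean values. Control replicate 2 was the highest control for 3 of the 10 lineage genes, Wt1, Tbx18 and Upk3b. With both of those arrays left out, the log2 difference was 0.44 for Wt1, 0.14 for Tbx18, 0.24 for Upk3b, 0.98 for Tcf21, 0.76 for Bnc1 and 0.67 for Hand2, and none of the 10 genes was called in that fit of 4 arrays by limma, with 4 at an unadjusted p under 0.05 and 0.073% of all genes called. The part of heart tissue in the values was not tested.

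Among the surface and cytoskeletal genes, the keratin Krt19 rose and the cell-surface proteins did not pass. Krt19, a keratin of simple epithelia that marks mesothelium and bile duct lineages, read 5.94, 6.15 and 5.89 in livers labelled knockout, against 5.63, 5.36 and 5.42 in control livers. The groups did not overlap, with 0.26 between the closest arrays. The rise was 1.44-fold (log2 difference 0.52, SE 0.11, 95% interval 0.26 to 0.79, limma adjusted p = 0.0387), and it did not pass in any of the 6 fits that left out a single array, with adjusted p-values from 0.0575 to 0.137. Of 8 measured biliary and gallbladder markers, 2 rose beside it, the transcription factor Sox9 (0.88, adjusted p = 0.0336) and prominin Prom1 (0.67, adjusted p = 0.0404), while the other 6 missed the threshold, including Epcam (0.98, adjusted p = 0.142) and Onecut2 (0.48, adjusted p = 0.15). Their summed linear signal was 895, 1055 and 933 in livers labelled knockout, against 670, 637 and 567 in control livers, and 0 of the 8 passed without labelled knockout replicate 3 or control replicate 2 (limma, with 3 at an unadjusted p under 0.05 in each). The biliary median was 0.42, and at the hepatoblast scalings by median deviation and by level it was 0.21 and −0.07 with 0 called in each (limma, with 3 and 1 at an unadjusted p under 0.05). Among these markers Cftr alone lay in the lowest 25% of mean values. Whether Krt19 was read from mesothelium or from biliary cells was not tested.

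Upk3b encodes a uroplakin found on mesothelium. It read 9.72, 9.35 and 9.98 in livers labelled knockout, against 9.38, 9.45 and 9.21 in control livers, so replicate 2 fell among the controls while the others lay above them. The log2 difference was 0.34 (SE 0.16, 95% interval −0.03 to 0.70, limma adjusted p = 0.269), and 0.50 without labelled knockout replicate 2 (adjusted p = 0.073). Gpm6a, a membrane glycoprotein of neurons that also marks the liver's mesothelium, read 6.48, 6.93 and 7.27 in livers labelled knockout, against 7.16, 6.87 and 6.76 in control livers. The groups were interleaved, and the log2 difference was −0.04 (SE 0.20, 95% interval −0.49 to 0.42, limma adjusted p = 0.942). Msln, mesothelin, is a membrane-anchored protein of mature mesothelium. It read 3.65, 3.71 and 3.69 in livers labelled knockout, against 4.02, 3.82 and 3.90 in control livers, with every labelled knockout array below every control. Its log2 difference of −0.23 did not pass (SE 0.09, 95% interval −0.45 to −0.02, limma adjusted p = 0.179). Msln was dim, with 26.7% of genes having a lower mean, and no background level was on hand for such a feature.

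**Figure D3:**
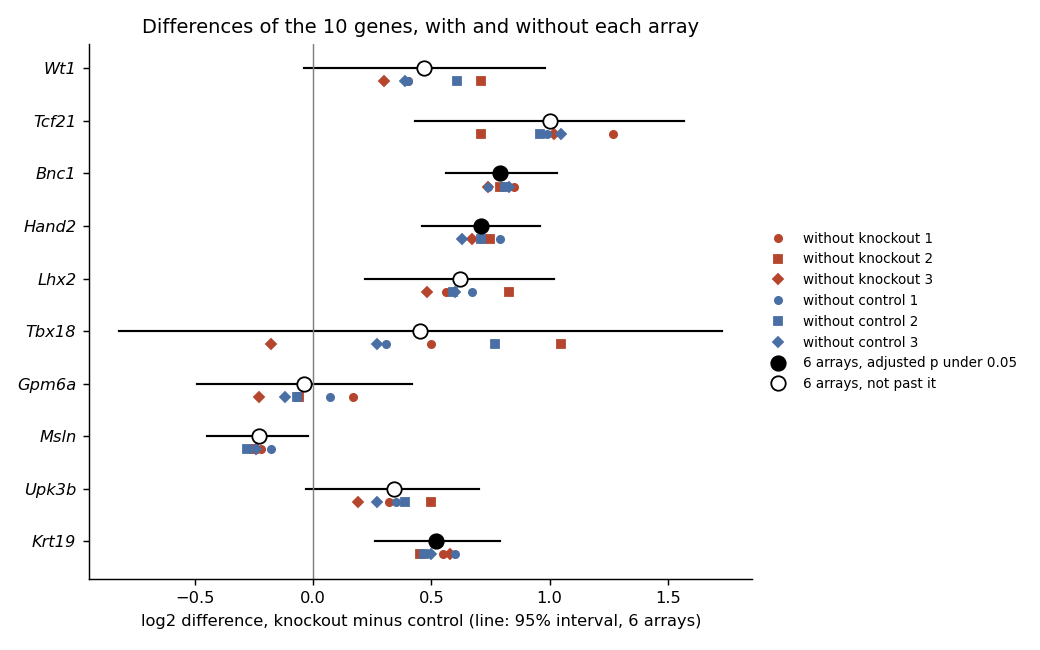
Log2 difference, labelled knockout minus control, of the 10 genes; large circles are the fit of 6 arrays (filled when past an adjusted p of 0.05) with their 95% interval, and small markers the fits without 1 array (red for a labelled knockout array, blue for a control, shape for the replicate). Bnc1, Hand2 and Krt19 move little with the array left out, Tbx18 runs from −0.18 to 1.05, and Wt1, Lhx2, Upk3b and Tbx18 are highest without labelled knockout replicate 2.

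The 10 genes differed in how they ranked the livers labelled knockout. Replicate 3 was the highest of these 3 arrays for 7 genes and replicate 2 for the other 3, Tcf21, Krt19 and Msln. Replicate 2 was the lowest for 5 genes, Wt1, Hand2, Lhx2, Tbx18 and Upk3b. Hepatoblast genes were also lowest there: the median over 18 genes of the value minus the control mean was 0.26, 0.05 and 0.33 in livers labelled knockout, against 0.00, −0.01 and −0.02 in control livers.

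Because all arrays share the same distribution of values, the differences are shares of a mixed RNA pool. When each array was centred on the median deviation of 18 hepatoblast genes, the median of all genes moved to −0.22, the signs of all 10 genes stayed, and Bnc1 (0.58, adjusted p = 0.0311) and Hand2 (0.50, adjusted p = 0.047) remained called while Krt19 (0.31, adjusted p = 0.234) did not. Centred on the median level of the same list, which moved the median of all genes to −0.50, Bnc1 (0.30, adjusted p = 0.224), Hand2 (0.21, 0.38) and Krt19 (0.03, 0.912) did not pass, and Wt1 (−0.03), Tbx18 (−0.04) and Upk3b (−0.16) changed sign, while Msln (−0.73, adjusted p = 0.00808) and Gpm6a (−0.54, adjusted p = 0.0409) passed as lower. The 18 hepatoblast genes themselves then had medians of −0.03 by median deviation and −0.31 by level. By level 0 of them were called higher and 4 lower, so that scaling did not hold the list steady. These scalings called 10.1% and 50% of all genes. Of the genes called, 11.5% and 1.17% were higher under these scalings, against 56.5% without them. Set against control replicate 2 alone, the only control read as female, the log2 differences were 1.08 for Tcf21, 0.75 for Bnc1, 0.71 for Hand2, 0.68 for Lhx2 and 0.64 for Krt19, but 0.23 for Upk3b, 0.18 for Wt1, 0.02 for Gpm6a, −0.14 for Msln and −0.18 for Tbx18. The share of all genes called was 7.11% with array weights, 17.7% with the dimmest 50% left out, 11.6% at an adjusted p under 0.1, 5.99% without labelled knockout replicate 1 and 2.38% without control replicate 1. With a sex term the log2 differences of the 10 genes equalled those against control replicate 2 alone, because both arrays read as male are controls. The sex term is therefore not a separate check, and control replicate 2 also had the largest summed heart muscle signal. None of the 10 was called with a sex term by limma, where 5 had an unadjusted p under 0.05 and 0.0129% of all genes were called.

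Of 19 other mesothelial genes, 2 rose and 1 fell, whereas 16 missed the threshold. The log2 difference was above 0 in 15 of the 19 (median 0.30, against −0.01 over all genes, and 0.09 and −0.20 at the hepatoblast scalings by median deviation and by level). Groups lay apart for 7 that were higher and 1 that was lower in the livers labelled knockout, where 13% and 14.3% of all genes did. The list shares keratin genes with the hepatoblast list used for scaling, and these are among the 7. The adhesion molecules Cdh3, P-cadherin, and Alcam, a marker of fetal liver mesothelium, rose by 0.59 (SE 0.12, adjusted p = 0.0312) and 0.58 (SE 0.12, adjusted p = 0.0326) on the log2 scale. Pkhd1l1, a fibrocystin-related membrane protein, was 2.07-fold lower: it read 6.58, 6.42 and 6.50 in livers labelled knockout, against 7.05, 7.73 and 7.87 in control livers (−1.05, SE 0.20, adjusted p = 0.0279). Igfbp2, a binding protein of insulin-like growth factors, did not pass (1.23, adjusted p = 0.0707). Without labelled knockout replicate 2 the counts were 3 higher and 0 lower, and without labelled knockout replicate 3 or control replicate 2 they were 0 and 0 by limma, against 8 of the 19 at an unadjusted p under 0.05 with 6 arrays.

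Among 20 regulators active in septum transversum mesenchyme 6 rose, none fell, and 14 missed the threshold; the log2 difference was above 0 in 19, with a median of 0.75 that stayed above 0 at both hepatoblast scalings (0.53 and 0.25). The nuclear receptor gene Nr2f2 read 8.97, 9.16 and 9.09 in livers labelled knockout, against 8.29, 8.37 and 8.28 in control livers, a 1.69-fold rise (0.76, SE 0.09, adjusted p = 0.0104) with groups clearly apart. Snai2, a repressor active when epithelium turns into mesenchyme, rose 2.05-fold (1.04, SE 0.19, adjusted p = 0.025), and the GATA factors Gata6 and Gata5 rose by 0.73 (adjusted p = 0.0326) and 0.89 (adjusted p = 0.0339) on the log2 scale. Gata4 and its cofactor gene Zfpm2 were the other genes of the list that rose. Gata4 is the gene targeted in the cross, and whether its feature lies within the deleted part is unknown. Labelled knockout replicate 2 was the highest array for 9 of the 20, among them Osr1 and Isl1, which were set beside Tcf21 above. Without that array 7 rose and the median was 0.61. The count was 1 without labelled knockout replicate 3, 1 without control replicate 2 and 0 without both (limma, with 11 of the 20 at an unadjusted p under 0.05 in 6 arrays).

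Mesenchymal genes of stellate and submesothelial cells, into which this lineage matures, were higher for 5 of 21 measured and lower for 0, with 16 not passing and a median of 0.46 (0.25 and −0.03 at the hepatoblast scalings). The count was 6 when labelled knockout replicate 2 was dropped, 1 for replicate 3 of that group, 1 without control replicate 2 and 0 without the pair (limma, with 15 at an unadjusted p under 0.05 in 6 arrays). The pericyte gene Rgs5 rose 3.22-fold (1.69, SE 0.17, adjusted p = 0.0074), the collagen chain gene Col1a2 1.62-fold (0.70, adjusted p = 0.0188), the PDGF receptor Pdgfrb 1.47-fold (0.56, adjusted p = 0.0208) and vimentin Vim 1.34-fold (0.42, adjusted p = 0.0325). In the list of retinoic acid genes, a pathway fed by mesothelial synthesis, 1 of 13 rose and 12 did not pass (median 0.23). The median was 0.02 with 0 called by median deviation, and −0.26 with 3 called lower when centred on the median level of hepatoblast genes. By level 11504 of all 23279 genes were called lower. The gene that rose was the receptor gene Rarb, itself a target of retinoic acid. It read 8.48, 8.38 and 8.68 in livers labelled knockout, against 7.54, 7.93 and 7.93 in control livers (0.71, SE 0.14, limma adjusted p = 0.0287). The retinoic acid hydroxylase gene Cyp26b1 (0.35, adjusted p = 0.0608), the binding protein gene Crabp1 (0.33, adjusted p = 0.133) and the receptor gene Rara (0.47, adjusted p = 0.149) did not pass. Of the 13 none was called without labelled knockout replicate 3 or without control replicate 2 (limma, with 2 and 3 at an unadjusted p under 0.05).

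In the values as deposited, no marker of a neighbouring tissue was called by limma: 0 of 10 for heart muscle (median −0.37, and 0.22 without control replicate 2), 0 of 10 for the urogenital ridge (0.05), 0 of 10 for foregut, lung and pancreas (−0.02) and 0 of 10 for body wall muscle (−0.08), with 1, 2, 1 and 0 at an unadjusted p under 0.05. Centred on the median level of hepatoblast genes, 10 heart muscle, 4 urogenital, 5 foregut and 6 body wall markers were called lower and 1 foregut marker higher. By median deviation 1 heart muscle and 1 urogenital marker were called lower. Of all 23279 genes, 11504 were called lower and 136 higher by level, and 2083 lower and 271 higher by median deviation. The urogenital ridge was of interest because it expresses Wt1. Its summed linear signal was 285, 503 and 321 in livers labelled knockout, against 295, 278 and 283 in control livers, with 5 of its 10 markers in the lowest 25% of mean values. Of 18 hepatoblast genes, 2 rose, Tbx3 (0.73, adjusted p = 0.0142) and Foxa1 (0.75, adjusted p = 0.0266), with a median of 0.18. Of 14 erythroid genes 6 fell (median −0.77), and of 14 leukocyte genes 10 fell (median −0.85). Without labelled knockout replicate 3 the counts were 0 for hepatoblast, 3 for erythroid and 3 for leukocyte genes, and without control replicate 2 they were 1, 3 and 7. Dropping labelled knockout replicate 2 gave 7, 4 and 7. Of the blood genes, 12 erythroid and 14 leukocyte genes were called lower when centred on median deviations (medians −0.98 and −1.06), and 14 and 14 when centred on the median level (−1.26 and −1.35). With a sex term 0 and 0 were called by limma, with 9 and 10 at an unadjusted p under 0.05.

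**Figure D4:**
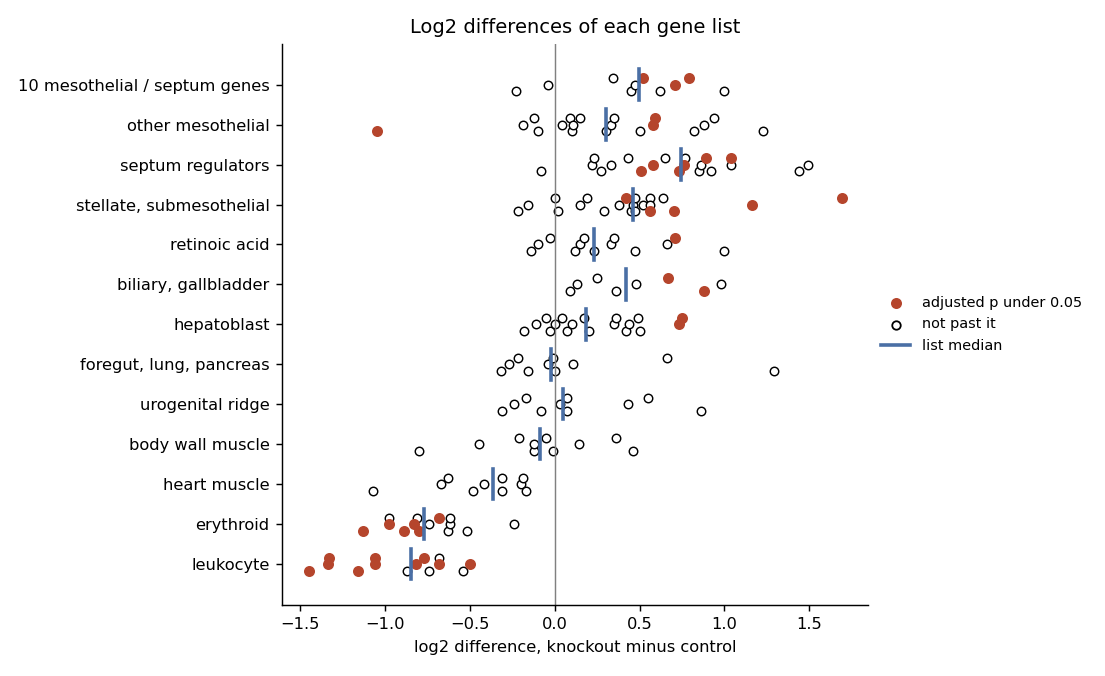
Log2 difference, labelled knockout minus control, of each gene of each list (filled points past an adjusted p of 0.05, blue bar the list median; points are spread vertically for legibility). The medians of the 10 genes (0.50), of septum transversum regulators (0.75) and of stellate and submesothelial genes (0.46) lie above 0 as deposited (0, 0.25 and −0.03 when centred on the median level of hepatoblast genes), and those of erythroid (−0.77) and leukocyte genes (−0.85) below it. The centring on the median level put the median of the hepatoblast genes themselves at −0.31.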

How the data were processed

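Total RNA of whole fetal liver was hybridised to Affymetrix arrays. Deposited were the authors' log2 values, produced with RMA per the submitters' processing notes (no version stated). Chip definition and build: not given in the sources used here. Deposited values ran from 2.55 to 13.9 with a median of 5.43, and once sorted they were the same in each of the 6 arrays, which hides any shift shared by most genes. Precision is set by the number of arrays.

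The platform annotation named 23281 of 24479 features (23156 with the symbol of a GRCm38.p6 gene table), and of features sharing a name the brighter was kept, which dropped 2. The test was limma's (version 3.58.1, R 4.3.3; lmFit and eBayes with 4 residual and 4.06 prior degrees of freedom), labelled knockout minus control, with no covariate and no filter, at an adjusted p of 0.05 over all 23279 genes. The code was tested on simulated data. With 3 arrays a group, no exact permutation test can reach a two-sided p under 0.1. Summed signals add 2 to the power of each log2 value. Besides the 10 genes, the naming rule took up to 4 genes per list by smallest p; it was not followed for the neighbouring-tissue and blood lists, and Gata4, Zfpm2, Barx1, Osr1, Isl1, Sox2, Nkx2-1, Sftpc, Myl7, Tnnt2, Actc1, Myh7, Cftr, Bnc2, Aldh1a2, Rspo1 and Mab21l2 were named outside it, after their values were seen. The members and lists were chosen with earlier results of these data known. Alternatives covered the variance prior, scaling, dim genes, array weights, a replicate block, sex, thresholds and left-out arrays. Columns without a sample numbered 0.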

Additional observations from a re-analysis of the deposited data

How the results depend on the processing

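The counts of calls were the least stable values. With 1480 genes called, the count was 11640 when centred on the hepatoblast list, 2354 when centred on the median deviation of hepatoblast genes, 2700 at an adjusted p under 0.1, 926 at 1.5-fold or more, 686 with the replicate block, 17 with labelled knockout replicate 3 and control replicate 2 left out, 3 with a sex term, 0 with control replicate 2 as the only control (2783 at an unadjusted p under 0.05, limma), and 41 to 1395 with a single array left out. Of the 10 genes, 3 were called, and 5 with array weights, 5 with the dimmest 50% left out (which leaves 9 of the 10), 5 at an adjusted p under 0.1, 0 with a sex term, against control replicate 2 alone or without labelled knockout replicate 3 and control replicate 2, and 0 to 3 with a single array left out (0 without control replicate 3, 1 without labelled knockout replicate 3 or control replicate 2). Groups that did not overlap numbered 6, where 27.3% of all genes had such gaps. They numbered 3 when centred on the hepatoblast list and 6 to 8 with a single array left out. Groups of fewer arrays separate more readily, and the share of all genes with such gaps was not counted in those fits. Fits with fewer arrays have fewer degrees of freedom; for the other changes the cause was not tested. Signs turned for Wt1 (−0.03), Tbx18 (−0.04) and Upk3b (−0.16) when centred on the hepatoblast list, and for Gpm6a (0.02) and Tbx18 (−0.18) with a sex term and against control replicate 2 alone. With a single array left out Gpm6a ran from −0.23 to 0.17 and Tbx18 from −0.18 to 1.05. Bnc1, Hand2, Krt19, Tcf21 and Lhx2 stayed above 0 in every fit run. Their groups lay fully apart, so leaving out or weighting arrays could not turn these signs. The centrings on hepatoblast genes could have, and the lowest values, when centred on the hepatoblast list, were 0.30, 0.21, 0.03, 0.51 and 0.12. Same-numbered arrays' deviations from their group means correlated at −0.05, −0.01 and −0.08 across genes. With 3 arrays a group these values cannot tell whether the shared replicate numbers pair the samples. Under the replicate block Krt19 lost its call (limma adjusted p = 0.0798). The fits without labelled knockout replicate 3 and control replicate 2 together, and the centring on median deviations, were chosen after the data were seen. Precision is limited by 3 arrays a group, and signal over background was not used.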

Other observations

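Several genes near the studied lineage were, like Tcf21, highest in labelled knockout replicate 2; they were picked after their values were seen. Bnc2, the paralogue of Bnc1, read 7.37, 8.43 and 7.33 in livers labelled knockout, against 6.79, 6.75 and 6.78 in control livers (log2 difference 0.94, limma adjusted p = 0.0789). Aldh1a2, the mesothelial retinaldehyde dehydrogenase gene, read 8.03, 9.24 and 8.16, against 7.11, 8.07 and 7.61 (0.88, adjusted p = 0.174), and the Wnt potentiator gene Rspo1 read 7.61, 8.95 and 8.06, against 7.49, 7.45 and 7.21 (0.82, adjusted p = 0.147). For Bnc2 all livers labelled knockout lay above all controls, for Rspo1 too, and for Aldh1a2 the groups overlapped.

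Mab21l2, a septum transversum gene needed for liver growth in mice, had the opposite order. It read 8.82, 7.04 and 8.74 in livers labelled knockout, against 8.37, 7.94 and 7.62 in control livers (0.22, adjusted p = 0.84), with replicate 2 lowest of all 6 arrays, as for Tbx18.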
